A study of Mus musculus with 4 samples.

Results

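The PI3K, mTOR, FoxO and Ragulator genes are 36 genes of a nutrient and growth factor signalling pathway, listed by symbol, and 35 of them had a row among the 20207 genes of the deposited table. The symbol Deptor had no row, and its older RefSeq synonym Depdc6 is given separately. Expression was measured by oligo-dT-primed RNA sequencing of LSK cells from the livers of mouse embryos at E14.5. LSK cells lack lineage markers and carry Sca-1 and Kit, and they include blood stem cells and multipotent progenitors. The groups were Brpf1-null embryos and wild-type embryos, with 2 samples of each genotype in the labels, and each sample pooled 4 embryos to give about 10000 cells. Brpf1 encodes a chromatin reader that joins histone acetyltransferases to their partner proteins. No source used here gives the allele or the cells in which it was deleted.

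The deposited tables of the pairs held identical values, so each genotype counts as 1 library (n = 1) and no difference below has a replicate check or a p-value. Whether these values come from the first pair, the second pair or a merge of both is not known. Levels are RPKM, reads scaled by transcript length and by library size. Shares and ratios between genes assume that reads scale with transcript length, which was not tested for these oligo-dT-primed libraries. A log2 change is log2 of (Brpf1-null RPKM + 1) over (wild-type RPKM + 1). Low genes therefore appear less changed than their ratio, and "past 1.5-fold" refers to that scale. Folds are ratios of RPKM without the added 1, each followed by its 95% counting interval, which was computed from estimated reads. It covers counting error only, not the spread between embryos, and reads copied by PCR make it too narrow. The spacing of low values gave about 22217000 reads in the Brpf1-null library and about 23628000 in the wild-type library. A listed 0 is given only as listed, since 959 genes were at 0 in the Brpf1-null library alone.

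PI3K makes a membrane lipid that recruits the kinases PDK1 and AKT. AKT inactivates the TSC complex, which frees the GTPase Rheb to activate mTOR, and it keeps FoxO transcription factors out of the nucleus. Amino acids act on the same kinase through Rag GTPases, which the Ragulator complex holds on the lysosome, while sestrins and the LKB1-AMPK branch restrain it. In blood stem cells, FoxO factors, LKB1 and the TSC complex are known for keeping cells quiescent and their metabolism in check.

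Across the 35 genes, Robld3 (Lamtor2, a Ragulator subunit) had the highest log2 change, and Rraga (RagA), which Ragulator anchors, had the lowest. Both AKT genes, the leukocyte PI3K gene Pik3cd, Pik3r5, Rps6kb2 and Akt1s1 were also past 1.5-fold higher in the Brpf1-null library, and Foxo1 and Sesn1 were past 1.5-fold lower. The mean level reached 1 RPKM for 25 of the 35 genes, which were kept. Of these 25, 7 were past 1.5-fold higher, beside 14.1% of all 9380 kept genes, and 3 were past 1.5-fold lower, beside 9.42% of all kept genes. The other 15 lay within 1.5-fold. Scaling left the members' counts at 7 and 3, beside 10.2% higher and 12.8% lower of all kept genes after median centring and 12.1% and 11% after quantile normalization. The median log2 change of the 25 genes was 0.29, and that of all kept genes was 0.04. The other 10 genes were under the filter, and with them the median over all 35 was 0.08. The counting interval of the fold lay above 1 for 14 of the 25 and below 1 for 7, but at this depth it lay above 1 for 40% and below 1 for 32.4% of the kept genes with an interval, so an interval that excludes 1 is common here.

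**Figure D1:**
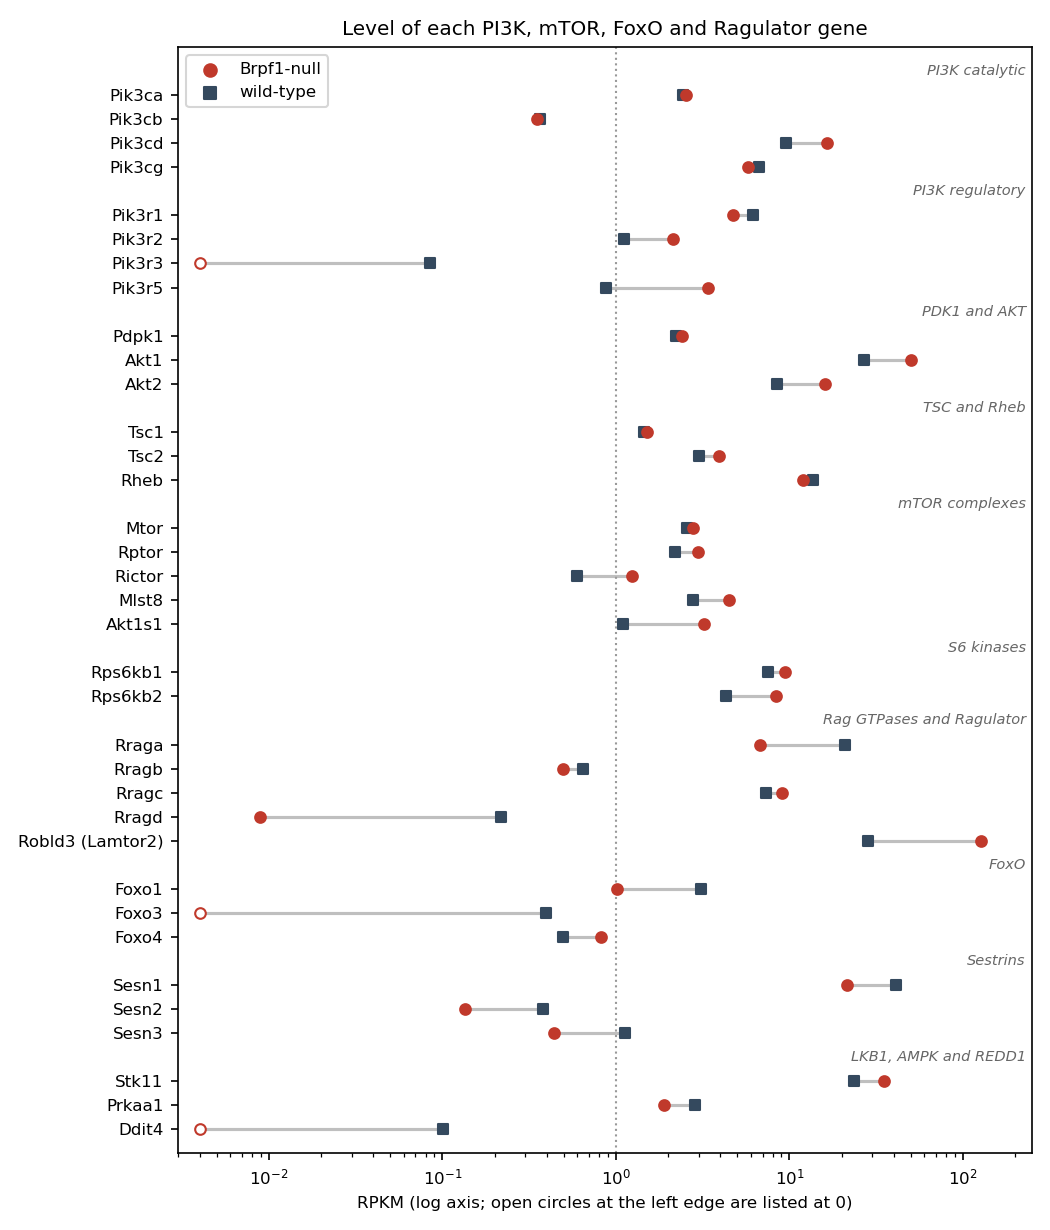
RPKM on a log axis for the 35 genes, in rows grouped by role, with circles for the Brpf1-null library and squares for the wild-type library (1 library each); the dotted line marks 1 RPKM, and open circles at the left edge are genes listed at 0. The widest separations above 1 RPKM are those of Robld3, with the circle to the right, and Rraga, with the circle to the left.

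The levels covered a wide range. In the Brpf1-null library the most abundant transcripts were Robld3 at 127 RPKM, Akt1 at 50.5 RPKM and Stk11 at 34.9 RPKM. In the wild-type library they were Sesn1 at 41.1 RPKM, Robld3 at 28.3 RPKM and Akt1 at 27.1 RPKM. In both libraries 22 of the 35 genes stayed under 5 RPKM. The kinase gene Mtor itself was among these low transcripts.

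**Figure D2:**
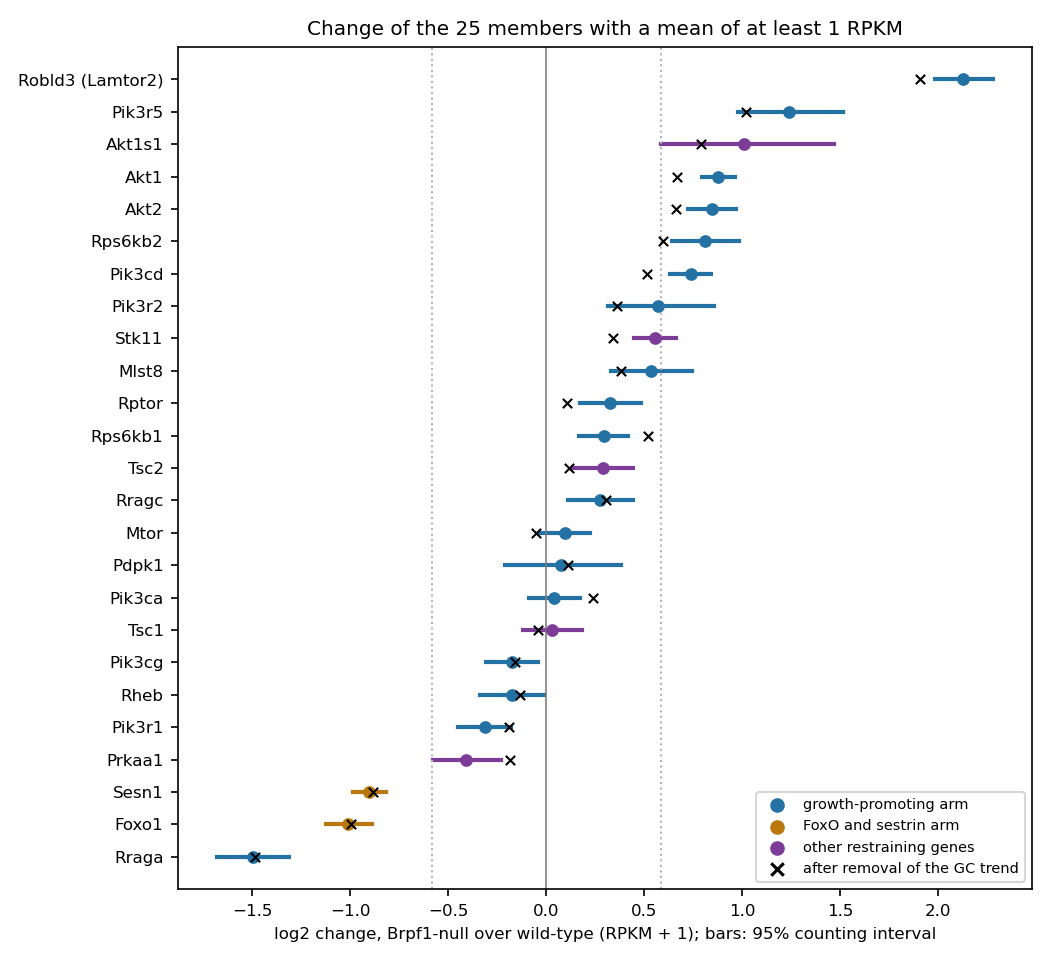
Log2 change (Brpf1-null over wild-type, RPKM + 1) of the 25 kept genes, ordered from highest to lowest and coloured by arm; bars are 95% counting intervals, dotted lines mark 1.5-fold and crosses give the change after a trend on GC content was removed. Robld3 lies at 2.13 and Rraga at −1.50, and most crosses in the upper part lie to the left of their points.

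Among the genes of PI3K catalytic subunits, the leukocyte isoform was higher in the Brpf1-null library. Pik3cd, which encodes the delta subunit that predominates in blood cells, was at 16.6 RPKM in the Brpf1-null library and 9.54 RPKM in the wild-type library. That is 1.74-fold higher (1.61 to 1.87), a log2 change of 0.74 that came down to 0.51, within 1.5-fold, after the GC trend was removed. Pik3cg, the gamma subunit coupled to G-protein receptors, was at 5.80 RPKM in the Brpf1-null and 6.67 RPKM in the wild-type library. Its value was slightly lower in the Brpf1-null library. Pik3ca, the widely expressed alpha subunit, was at 2.53 and 2.44 RPKM in the Brpf1-null and wild-type libraries, a log2 change of 0.04 that turned negative after median centring and after quantile normalization. Pik3cb, the beta subunit, was low, at 0.352 RPKM in the Brpf1-null and 0.366 RPKM in the wild-type library. Pik3cd thus made up 65.6% of the summed RPKM of the 4 catalytic genes in the Brpf1-null library and 50.2% in the wild-type library, and Pik3cg 23.0% and 35.1%.

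The regulatory subunit genes went different ways. Pik3r5 encodes an adaptor that ties the gamma catalytic subunit to G-protein beta-gamma. It was at 3.41 RPKM in the Brpf1-null library and 0.872 RPKM in the wild-type library, 3.91-fold higher (3.09 to 4.99), and it passed the filter only through its Brpf1-null level. Pik3r2, which encodes p85 beta, was at 2.14 RPKM in the Brpf1-null and 1.11 RPKM in the wild-type library, 1.92-fold higher (1.46 to 2.54), and lay just under 1.5-fold on the log2 scale at 0.57. Pik3r1, which encodes p85 alpha, the main stabilizer of class IA catalytic subunits, was the most abundant of the 4. It was at 4.76 RPKM in the Brpf1-null and 6.17 RPKM in the wild-type library, within 1.5-fold. Pik3r3 was listed at 0 in the Brpf1-null library and at 0.0845 RPKM in the wild-type library. The share of Pik3r1 in the summed RPKM of these 4 genes was 46.2% in the Brpf1-null and 74.9% in the wild-type library. That of Pik3r5 was 33.1% and 10.6%. The shares leave out Pik3r6, a further regulatory subunit gene from the list of other pathway genes, named outside its rule with its values known. Pik3r6 was at 3.29 RPKM in the Brpf1-null and 2.76 RPKM in the wild-type library, within 1.5-fold. Class IA regulatory transcripts (Pik3r1, Pik3r2 and Pik3r3) summed to 0.355 times the class IA catalytic transcripts (Pik3ca, Pik3cb and Pik3cd) in the Brpf1-null library, against 0.596 times in the wild-type library.

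**Figure D3:**
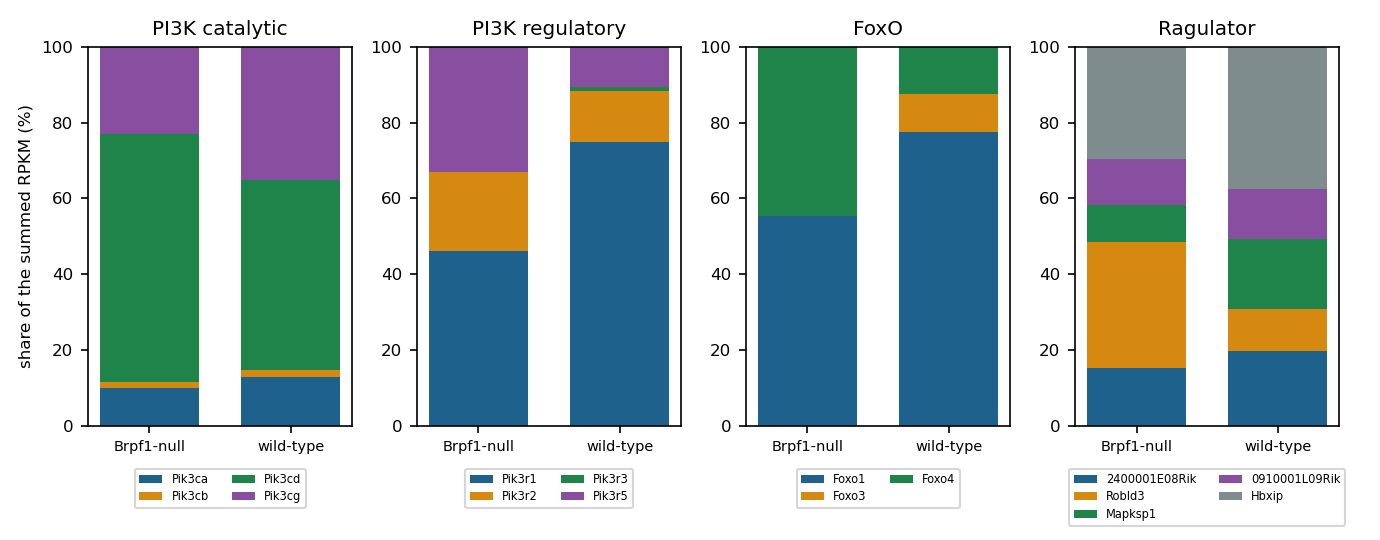
Share of the summed RPKM (%) that each gene takes within the PI3K catalytic, PI3K regulatory, FoxO and Ragulator genes, with the Brpf1-null library left and the wild-type library right in each panel. Pik3cd, Pik3r5, Foxo4 and Robld3 take larger shares in the Brpf1-null library, and Pik3cg, Pik3r1, Foxo1 and Hbxip smaller ones.

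AKT transcripts were higher in the Brpf1-null library, and the transcript of the kinase upstream of AKT was close between the libraries. Akt1, the main growth isoform, was at 50.5 RPKM in the Brpf1-null library and 27.1 RPKM in the wild-type library, 1.87-fold higher (1.76 to 1.98). Akt2, known for its part in insulin responses, was at 15.9 RPKM in the Brpf1-null and 8.44 RPKM in the wild-type library, 1.89-fold higher (1.73 to 2.07). Both stayed past 1.5-fold after the GC trend was removed, at log2 changes of 0.67 and 0.66. Of the stretches of 50 bases in Akt2 transcripts, 15.7% also occur in other annotated genes, most often the pseudogene Akt2-ps, so part of its reads cannot be assigned with certainty. Pdpk1, which encodes PDK1, was at 2.39 RPKM in the Brpf1-null and 2.22 RPKM in the wild-type library, a log2 change of 0.08 that turned negative after median centring.

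The genes of the TSC complex and Rheb differed little. Tsc1 was at 1.51 RPKM in the Brpf1-null and 1.46 RPKM in the wild-type library, a log2 change of 0.03 whose sign turned under median centring, quantile normalization and GC removal. Tsc2, the subunit that switches Rheb off, was at 3.92 RPKM in the Brpf1-null and 3.03 RPKM in the wild-type library, 1.29-fold higher (1.13 to 1.48). It overlaps Pkd1 on the opposite strand over 7.20% of its exonic bases. Rheb, the direct activator of mTOR, was at 12.01 RPKM in the Brpf1-null and 13.7 RPKM in the wild-type library. All 3 genes lay within 1.5-fold.

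Of the 4 kept genes of the mTOR complexes, Akt1s1 was past 1.5-fold higher in the Brpf1-null library and Mtor, Rptor and Mlst8 lay within 1.5-fold. Mtor was at 2.79 RPKM in the Brpf1-null and 2.55 RPKM in the wild-type library, a log2 change of 0.09 that turned negative after median centring and GC removal. Akt1s1 encodes PRAS40, an inhibitor of mTORC1 that AKT inactivates. It was at 3.22 RPKM in the Brpf1-null and 1.10 RPKM in the wild-type library, 2.93-fold higher (1.96 to 4.37), from about 98 and 36 reads. Its transcript has a GC content of 63.8%, the highest of the kept members, and its log2 change of 1.01 came down to 0.79 after the GC trend was removed. Of the exonic bases of Akt1s1, 2.90% overlap Tbc1d17 on the opposite strand. Tbc1d17 was more abundant, at 13.0 RPKM in the Brpf1-null and 13.5 RPKM in the wild-type library, and its part in the reads of Akt1s1 was not tested. Rptor, the scaffold of mTORC1, was at 2.99 RPKM in the Brpf1-null and 2.18 RPKM in the wild-type library, and Mlst8, a subunit of both complexes, at 4.46 and 2.77 RPKM. Both lay within 1.5-fold on the log2 scale. About 22.5% of the exonic bases of Mlst8 overlap Bricd5 on the opposite strand, a gene at 0.0903 RPKM in the Brpf1-null and 0.0424 RPKM in the wild-type library.

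Rictor, the scaffold of mTORC2, the complex that phosphorylates AKT, was under the filter at 1.24 RPKM in the Brpf1-null and 0.595 RPKM in the wild-type library, 2.08-fold higher (1.68 to 2.59) and within 1.5-fold on the log2 scale at 0.49. From the list of other pathway genes, Mapkap1 (SIN1), another core subunit, was at 5.86 RPKM in the Brpf1-null and 2.91 RPKM in the wild-type library, 2.01-fold higher (1.69 to 2.39). Prr5 (PROTOR1), a subunit that binds Rictor, was at 13.5 RPKM in the Brpf1-null and 4.40 RPKM in the wild-type library, 3.06-fold higher (2.59 to 3.63). After the GC trend was removed their log2 changes were 0.65 for Rictor, 0.82 for Mapkap1 and 1.21 for Prr5. Depdc6, the older symbol of the mTOR inhibitor gene Deptor, was at 1.17 RPKM in the Brpf1-null and 1.01 RPKM in the wild-type library, within 1.5-fold.

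The S6 kinase genes, whose products drive protein synthesis downstream of mTORC1, differed by isoform. Rps6kb2 was at 8.36 RPKM in the Brpf1-null and 4.34 RPKM in the wild-type library, 1.93-fold higher (1.69 to 2.21). Rps6kb1 was at 9.41 RPKM in the Brpf1-null and 7.50 RPKM in the wild-type library, 1.25-fold higher (1.14 to 1.38), and stayed within 1.5-fold. With the GC trend removed the isoforms came close together, at log2 changes of 0.59 for Rps6kb2 and 0.52 for Rps6kb1. Of the exonic bases of Rps6kb2, 23.7% overlap Ptprcap on the opposite strand, and the strand setting of the counting is not given in the sources used here. Ptprcap had the opposite pattern, with 97.7 RPKM in the Brpf1-null and 193.6 RPKM in the wild-type library.

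The Rag GTPases and Ragulator held the highest and the lowest log2 change of all the members. Robld3 encodes LAMTOR2, which pairs with LAMTOR3 to form a docking surface for the Rag GTPases on the lysosome. It was at 127 RPKM in the Brpf1-null library and 28.3 RPKM in the wild-type library, 4.49-fold higher (4.05 to 4.99), from about 1885 and 446 reads. Its log2 change of 2.13 ranked 11 from the top among the 9380 kept genes, and it was 1.91 after the GC trend was removed. No stretch of 50 bases of its transcripts occurs in another annotated gene. Rraga encodes RagA, which pairs with RagC or RagD. It was at 6.77 RPKM in the Brpf1-null library (about 243 reads) and 20.9 RPKM in the wild-type library (about 799 reads). That is 3.09-fold lower (2.67 to 3.58), and its log2 change of −1.50 ranked 125 from the bottom and was −1.49 after GC removal.

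The promoter windows of Robld3 and Rraga are shown because these genes stand at opposite ends of the member list. Those of Rragc and the Ragulator gene 2400001E08Rik (Lamtor1) are among the windows that hold the E-box hexamer (CACGTG, the same on both strands). The lysosomal factors TFEB and TFE3 can bind this hexamer, but a match does not show which factor binds. Each line gives the 250 bases before the transcript start from RefSeq on GRCm38.p6, 5′ to 3′ on the gene's strand, with the hexamer in capitals. The files' own build is mm9, so these positions belong to the RefSeq table alone.
Robld3 (Lamtor2), chr3:88552952-88553201, minus strand: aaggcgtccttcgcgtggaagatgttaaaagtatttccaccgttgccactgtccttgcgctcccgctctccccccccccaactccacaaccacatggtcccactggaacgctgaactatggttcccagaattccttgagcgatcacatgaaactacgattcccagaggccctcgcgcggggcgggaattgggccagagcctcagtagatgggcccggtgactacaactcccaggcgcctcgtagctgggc
Rraga, chr4:86575423-86575672, plus strand: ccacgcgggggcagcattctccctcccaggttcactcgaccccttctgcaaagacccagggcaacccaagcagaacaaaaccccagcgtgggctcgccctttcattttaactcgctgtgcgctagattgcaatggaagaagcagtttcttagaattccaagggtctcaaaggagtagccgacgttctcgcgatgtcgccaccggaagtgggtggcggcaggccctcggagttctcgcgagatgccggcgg
Rragc, chr4:123917183-123917432, plus strand: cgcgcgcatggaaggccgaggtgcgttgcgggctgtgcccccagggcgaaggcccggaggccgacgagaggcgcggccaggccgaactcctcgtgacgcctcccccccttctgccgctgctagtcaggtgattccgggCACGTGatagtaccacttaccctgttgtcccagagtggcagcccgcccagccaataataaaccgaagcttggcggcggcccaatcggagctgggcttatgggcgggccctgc
2400001E08Rik (Lamtor1), chr7:101905587-101905836, plus strand: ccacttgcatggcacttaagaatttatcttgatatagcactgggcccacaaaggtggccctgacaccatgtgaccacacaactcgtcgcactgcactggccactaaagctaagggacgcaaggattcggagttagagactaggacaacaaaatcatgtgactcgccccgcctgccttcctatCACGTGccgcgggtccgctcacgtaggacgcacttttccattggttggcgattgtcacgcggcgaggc

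Neither the Robld3 nor the Rraga window holds the hexamer, and the window of the Ragulator gene 0910001L09Rik (Lamtor4), not shown, does. RefSeq windows were matched for 33 of the 35 genes, and the hexamer occurs in those of Rheb, Rragb and Rragc (9.1%), beside 6.86% of 27025 genes with a window. The FoxO site GTAAACA, or TGTTTAC on the other strand, is in the windows of Akt1 and Pik3cg (6.1% of the 33) and in 3.54% of all genes. The windows of Foxo1, Foxo3, Sesn1, Sesn2 and Sesn3 hold none of these motifs. A match or its absence describes these windows only.

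**Figure D4:**
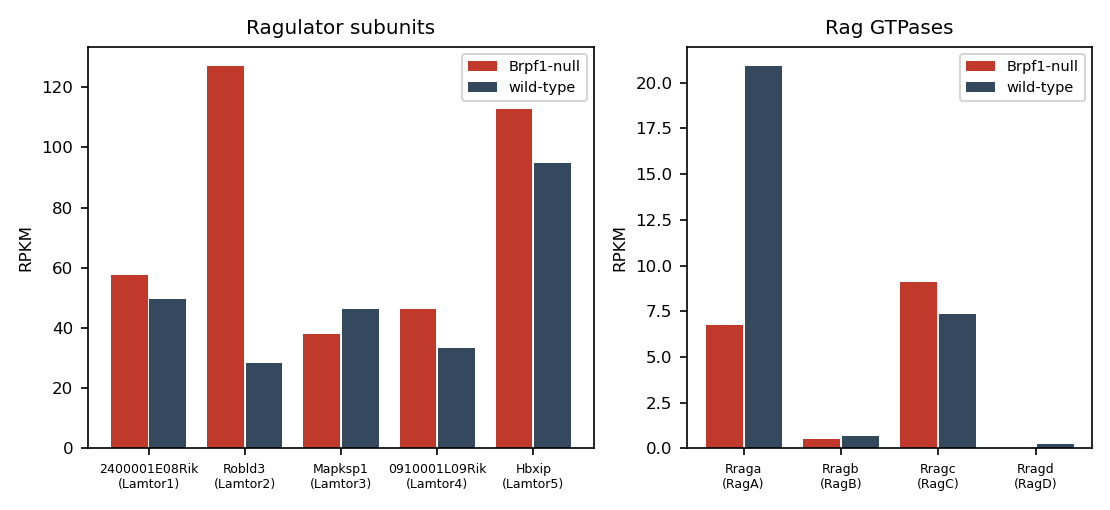
RPKM of the 5 Ragulator subunit genes (left) and the 4 Rag GTPase genes (right) in the Brpf1-null library (left bar of each pair) and the wild-type library (right bar), 1 library each. Robld3 is the lowest of the Ragulator genes in the wild-type library and the highest in the Brpf1-null library, and Rraga has the shorter Brpf1-null bar.

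The other Ragulator subunits stayed within 1.5-fold. Hbxip (Lamtor5) was at 113 RPKM in the Brpf1-null and 94.6 RPKM in the wild-type library, and 2400001E08Rik (Lamtor1), the subunit that anchors the complex to the membrane, was at 57.6 and 49.5 RPKM. The gene 0910001L09Rik (Lamtor4) was at 46.2 RPKM in the Brpf1-null and 33.5 RPKM in the wild-type library. Mapksp1 (Lamtor3), the direct partner of Robld3, was at 38.1 RPKM in the Brpf1-null and 46.4 RPKM in the wild-type library. Robld3 transcripts were 3.34 times those of Mapksp1 in the Brpf1-null library, against 0.610 times in the wild-type library, and Robld3 took 33.3% of the summed RPKM of the 5 genes, against 11.2%. These 4 subunits come from the list of lysosomal amino acid sensing genes and are named outside its rule, with their values known.

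The remaining Rag genes were less abundant. Rragc, for RagC, was at 9.12 RPKM in the Brpf1-null and 7.36 RPKM in the wild-type library, 1.24-fold higher (1.09 to 1.41). Rragb, the RagB gene on the X chromosome, was under the filter at 0.493 RPKM in the Brpf1-null and 0.649 RPKM in the wild-type library, and its fold was not resolved at this depth (1.32-fold lower, 0.766 to 2.29). Rragd was at 0.00891 RPKM in the Brpf1-null library, about 1 read, and at 0.218 RPKM in the wild-type library, about 26 reads, a ratio of 24.4 with a counting interval from 4.02 to 1002. A Rag dimer joins RagA or RagB to RagC or RagD. The summed RPKM of Rraga and Rragb was 0.796 times that of Rragc and Rragd in the Brpf1-null library, and 2.84 times in the wild-type library.

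FoxO transcripts were low, and 2 of the 3 had lower values in the Brpf1-null library. Foxo1, a factor required for early B-cell development and stem cell maintenance, was at 1.02 RPKM in the Brpf1-null and 3.08 RPKM in the wild-type library, 3.01-fold lower (2.56 to 3.55). Foxo3, the FoxO factor best known for adult stem cell maintenance, was listed at 0 in the Brpf1-null library and at 0.395 RPKM in the wild-type library, where it rests on about 27 reads. Foxo4 went the other way, at 0.826 RPKM in the Brpf1-null and 0.495 RPKM in the wild-type library, 1.67-fold higher (1.09 to 2.59). Foxo3 and Foxo4 were under the filter. Foxo1 made up 55.3% of the summed FoxO RPKM in the Brpf1-null and 77.6% in the wild-type library.

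Foxo4 and Rragb are X-linked, and sex-linked transcripts differed between the libraries. Xist, expressed from the inactive X chromosome of female cells, was at 0.781 RPKM in the Brpf1-null and 0.319 RPKM in the wild-type library, and the Y-linked gene Ddx3y at 1.65 and 5.87 RPKM. The part of this difference in the values of Foxo4 and Rragb was not tested.

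All 3 sestrin genes had lower values in the Brpf1-null library. Sesn1, a stress-induced inhibitor of mTORC1 under p53 control, was by far the most abundant, at 21.5 RPKM in the Brpf1-null and 41.1 RPKM in the wild-type library. It was 1.91-fold lower (1.80 to 2.03), and its log2 change was −0.90, or −0.88 after GC removal. Sesn2, the leucine sensor of the family, was at 0.136 RPKM in the Brpf1-null and 0.382 RPKM in the wild-type library, 2.82-fold lower (1.39 to 6.67). Sesn3, a FoxO target, was at 0.438 RPKM in the Brpf1-null and 1.14 RPKM in the wild-type library, 2.59-fold lower (2.02 to 3.34). Sesn2 and Sesn3 were under the filter. Sesn1 held 97.4% of the summed sestrin RPKM in the Brpf1-null and 96.4% in the wild-type library.

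Of the LKB1-AMPK branch, Stk11, which encodes the kinase LKB1 that activates AMPK, was at 34.9 RPKM in the Brpf1-null and 23.5 RPKM in the wild-type library. It was 1.49-fold higher (1.38 to 1.61), within 1.5-fold on the log2 scale at 0.55 and at 0.34 after GC removal. Prkaa1, for the catalytic AMPK subunit alpha 1, was at 1.90 RPKM in the Brpf1-null and 2.85 RPKM in the wild-type library, 1.497-fold lower (1.25 to 1.80) and also within 1.5-fold on the log2 scale at −0.41. The kinase and its target thus had values on opposite sides. Ddit4, for the stress-induced mTORC1 inhibitor REDD1, was listed at 0 in the Brpf1-null library and at 0.1003 RPKM in the wild-type library, about 4 reads.

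Set side by side by role, the growth-promoting genes and the FoxO and sestrin genes had medians of opposite sign. Of 23 growth-promoting genes, 18 were kept, with 6 past 1.5-fold higher, 1 (Rraga) past 1.5-fold lower and a median log2 change of 0.31. Over all kept genes the shares were 14.1% higher and 9.42% lower, and the median was 0.04. Of the 6 FoxO and sestrin genes, 5 had a lower value in the Brpf1-null library. Of all 14228 genes with a value above 0 in either library, 7289 had a higher value in the Brpf1-null library. Only 2 of the 6 were kept, Foxo1 and Sesn1, both past 1.5-fold lower, and the median of this arm rests on these 2. The summed RPKM of the 6 genes was 23.9 in the Brpf1-null and 46.6 in the wild-type library, of which Sesn1 alone was most. The other restraining genes did not follow the FoxO and sestrin genes: of 5 kept, Akt1s1 was past 1.5-fold higher and 4 lay within 1.5-fold, with a median log2 change of 0.29. The arms were drawn up with results of these data known, so these medians describe the lists and test nothing.

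The changes of the members varied with the GC content of their transcripts. Over the 25 kept members the Spearman correlation of the log2 change with GC content was 0.75, and over all 9258 kept genes with a GC value it was 0.29. Both are descriptions of the same 2 libraries, and genes are not replicates. The 7 members past 1.5-fold higher had a median GC content of 57.0%, the 3 past 1.5-fold lower had 48.5%, and the median of all kept genes was 50.3%. Over all kept genes the median log2 change was −0.17 in the lowest GC decile and 0.28 in the ninth decile, and 0.24 in the highest. After this trend was removed 6 of the 25 members were past 1.5-fold higher, beside 11.8% of all kept genes, and 3 were past 1.5-fold lower, beside 9.48%. The member that no longer passed was Pik3cd.

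**Figure D5:**
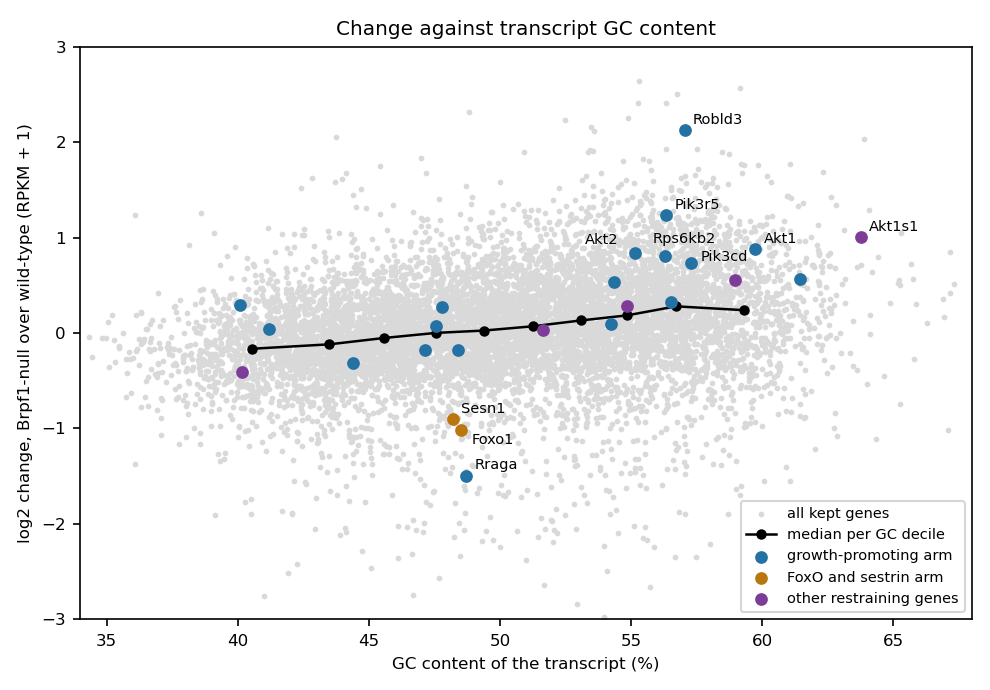
Log2 change (Brpf1-null over wild-type, RPKM + 1) against transcript GC content (%) for all kept genes (grey, 6 outside the axes), with the median per GC decile (black line) and the 25 kept members coloured by arm. The members past 1.5-fold higher all lie above 55% GC, and Sesn1, Foxo1 and Rraga lie near 48%.

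The lists of other pathway genes went in both directions, and their counts stand beside 14.1% higher and 9.42% lower of all kept genes. Among 21 genes of PI3K adaptors and phosphatases, 13 were kept, 0 were past 1.5-fold higher and 2 (15.4%) past 1.5-fold lower, with a median log2 change of −0.13. Sgk1, for an AKT-related kinase activated by mTORC2, was at 1.02 RPKM in the Brpf1-null and 4.08 RPKM in the wild-type library, 4.01-fold lower (3.01 to 5.45). Grb10, an adaptor that dampens insulin receptor signalling, was at 3.09 RPKM in the Brpf1-null and 7.04 RPKM in the wild-type library, 2.28-fold lower (2.00 to 2.59). Of 16 further genes of mTOR complexes and effectors, 13 were kept, 4 (30.8%) were past 1.5-fold higher and 1 past 1.5-fold lower, with a median of 0.11 that turned to −0.02 after GC removal and to −0.003 after median centring. Beside Mapkap1 and Prr5, these were Rps6ka1, for a ribosomal S6 kinase downstream of ERK, at 50.7 RPKM in the Brpf1-null and 25.5 RPKM in the wild-type library, and Telo2, for a cochaperone that stabilizes mTOR, at 5.83 and 3.13 RPKM (the log2 change of Telo2 was 0.51 after GC removal, within 1.5-fold). The gene past 1.5-fold lower was Eif4ebp1.

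Of 18 further genes of lysosomal amino acid sensing, 15 were kept and 3 (20%) were past 1.5-fold higher, beside 14.1% of all kept genes, with 0 past 1.5-fold lower. The median log2 change of 0.14 came to 0.03 after median centring and to 0.03 after GC removal. Flcn, for folliculin, which activates RagC, was at 11.6 RPKM in the Brpf1-null and 6.04 RPKM in the wild-type library, 1.92-fold higher (1.72 to 2.15). Depdc5, of the GATOR1 complex that switches RagA off, was 2.04-fold higher (1.77 to 2.36), and Wdr24, of the opposing GATOR2 complex, 1.74-fold higher (1.52 to 2.00). Wdr24 came within 1.5-fold after GC removal, at a log2 change of 0.47, after median centring, at 0.57, and after quantile normalization, at 0.58. Of 12 genes of AMPK and LKB1 partners, 7 were kept, 0 were past 1.5-fold higher and 2, beside 9.42% of all kept genes, past 1.5-fold lower. These were Stradb, for a pseudokinase partner of LKB1, at 5.03 RPKM in the Brpf1-null and 9.40 RPKM in the wild-type library, and Cab39l, for a scaffold related to the LKB1 partner MO25, at 9.70 and 16.6 RPKM. Cab39l lay within 1.5-fold after GC removal, at −0.57. With no filter, 10 of the 12 had a value above 0, with 1 past 1.5-fold higher and 2 lower. The shares of all such genes were 10.1% and 7.59%. The higher gene was Prkab2, for an AMPK subunit, named outside the list's rule with its values known. Prkab2 was at 0.771 RPKM in the Brpf1-null and 0.0992 RPKM in the wild-type library, 7.77-fold higher (4.15 to 15.3).

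Genes known as FoxO targets went both ways. Of 26, 20 were kept. Of these, 4 (20%) were past 1.5-fold higher in the Brpf1-null library, beside 14.1% of all kept genes, and 6 (30%) past 1.5-fold lower, beside 9.42%, with a median log2 change of −0.20 that came to −0.09 after GC removal. Il7r, for the interleukin-7 receptor of lymphoid progenitors, was at 1.85 RPKM in the Brpf1-null and 8.53 RPKM in the wild-type library, 4.61-fold lower (3.87 to 5.57). In the other direction, Ccnd2, for a D-type cyclin that FoxO factors repress, was at 68.8 RPKM in the Brpf1-null and 32.5 RPKM in the wild-type library, 2.12-fold higher (2.05 to 2.19), and Pink1, for a mitochondrial kinase, was 1.99-fold higher (1.71 to 2.32). Beside Il7r, all 9 kept B-lineage markers were past 1.5-fold lower. Some passed the filter only through their wild-type level, such as Cd79a at 0.848 RPKM in the Brpf1-null and 50.6 RPKM in the wild-type library. With no filter, 9 of 10 markers were past 1.5-fold lower, and 1 was higher in the Brpf1-null library but within 1.5-fold. The summed RPKM of the 11 B-lineage markers was 84.2 in the Brpf1-null and 281 in the wild-type library. Most of the Brpf1-null sum came from 1 gene, and without it the sums were 6.44 in the Brpf1-null and 162 in the wild-type library (computed after the values were seen). Both libraries listed Pax5 at 0. The part of B-lineage cells in the values of Foxo1 and Il7r was not tested. In pooled cells, fewer cells of a type and less RNA per cell cannot be told apart.

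Markers of other cells also differed between the libraries. The summed RPKM of 14 hepatocyte markers was 560 in the Brpf1-null and 2126 in the wild-type library, with 13 of 13 kept markers past 1.5-fold lower, and that of 11 erythroid markers was 104 and 666, with 11 of 11 past 1.5-fold lower. Of megakaryocyte markers 4 of 6 kept were past 1.5-fold lower. With no filter, 4 of the 8 were past 1.5-fold lower and 1 past 1.5-fold higher. Of monocyte and macrophage markers 5 of 9 kept were past 1.5-fold higher and 2 past 1.5-fold lower. Over all kept genes the shares were 14.1% higher and 9.42% lower. The genes of the LSK gate were present in both libraries, with Kit at 21.3 RPKM in the Brpf1-null and 25.6 RPKM in the wild-type library and Ly6a (Sca-1) at 9.51 and 10.6 RPKM. Of the 8 gate and stem cell surface genes, Cd34 was past 1.5-fold higher (within it after median centring, at 0.50), and Slamf1, under the filter at 0.0335 RPKM in the Brpf1-null (about 2 reads) and 0.566 RPKM in the wild-type library, was 16.9-fold lower (4.36 to 145). The log2 change of Slamf1 was −0.60, past 1.5-fold, and came within it after quantile normalization (−0.37) and GC removal (−0.49). Brpf1 itself was at 2.15 RPKM in the Brpf1-null and 2.59 RPKM in the wild-type library, a value over the whole gene that does not resolve a deleted part. The part of these cell types in the members' values was not tested.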

How the data were processed

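LSK cells of Brpf1-null and wild-type E14.5 fetal livers were sequenced from oligo-dT-primed libraries, and grouped by genotype label. The submitters' processing notes name TopHat and mm9; no source used here gives the annotation, read counter, strand setting or filters. Deposited values were RPKM in the first pair's table and FPKM in the second's, per the file headers, with a fold change (the ratio of wild-type to Brpf1-null) and its log2, which the authors deposited in the opposite direction to that used here and which were not used. All 20207 genes matched and 0 values differed between the tables, so they were read as 1 library per genotype. The planned limma test needed differing tables and was not run.

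The filter kept 9380 genes whose mean reached 1 RPKM. Symbols were matched to GENCODE M21 (GRCm38) transcripts for 98.1% of genes, which gave lengths and GC content. Library sizes were those at which low values came closest to whole reads: 65.3% of 2584 low values were whole within 0.1 read, against 25.5% with sizes raised by 5%. The method recovered the sizes of simulated libraries drawn with the same transcript lengths. That check does not cover lengths that differ from those of the submitters' annotation. Intervals are exact Clopper-Pearson intervals of the Brpf1-null share of reads. A lowess trend on GC was removed as an alternative (statsmodels 0.14.6; Python 3.11.15). Members and lists were chosen with earlier results of these data known. Genes named are all members, up to 4 genes past 1.5-fold per other pathway list, the LSK gate genes and at most 2 genes per marker list; others are marked where they are named, and a few genes under this rule are left out here.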

Additional observations from a re-analysis of the deposited data

How the results depend on the processing

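No paired analysis was possible because the tables of both pairs hold the same values, and for the same reason no replicate could be left out. All 25 kept members kept their sign with a pseudocount of 0.1 or 5 RPKM. This holds by construction, since the same value is added in both libraries, and it tests nothing. Signs changed for Mtor, Pdpk1, Pik3ca and Tsc1 under median centring, for Pik3ca and Tsc1 under quantile normalization and for Mtor and Tsc1 after GC removal, all of them close to 0. The side of the 1.5-fold threshold was kept by 25 of 25 members under both scalings, by 24 after GC removal, by 23 with a pseudocount of 0.1 and by 20 with a pseudocount of 5, where Akt1s1, Foxo1, Pik3cd, Pik3r5 and Rps6kb2 came within it. The count of higher members was 7, but 3 with a pseudocount of 5 RPKM and 3 past 2-fold. The other alternatives gave 5 to 9, and the count of lower members was 2 or 3. The shares of all kept genes also moved, to 5.91% higher and 4.19% lower with a pseudocount of 5 RPKM. They were 18.6% and 12.4% with a pseudocount of 0.1, and 14.3% and 8.71% at a mean of at least 5 RPKM. With no filter they were 10.1% and 7.59% of all genes with a value above 0. No such share is given for the count past 2-fold, so that count cannot be set against all genes. The median of the kept FoxO and sestrin genes was −0.96, and it was −1.22 with a pseudocount of 0.1, −0.61 with a pseudocount of 5, −0.53 over all 6 genes with no filter and −1.07 after median centring. The median of B-lineage markers was −2.75, and −1.35 with a pseudocount of 5. A larger pseudocount shrinks the change of low genes by construction. Median centring moved the median change of all kept genes from 0.04 to −0.07. Depth limits Rragb, Rragd, Sesn2, Foxo3, Pik3r3 and Ddit4 most, with no more than 35 reads in either library, and the spread between embryos is unknown.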

Other observations

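Of 4 further effector genes of mTORC1 signalling and translation, chosen after their values were seen, Eif4ebp1 and Trib3 were past 1.5-fold lower in the Brpf1-null library. These 4, all with lower values there, come from the list of 16 further genes of mTOR complexes and effectors. With no filter, 4 of the 16 were past 1.5-fold higher and 3 past 1.5-fold lower. The shares of all genes with a value above 0 were 10.1% and 7.59%. Eif4e and Rps6 lay within 1.5-fold, but Eif4e was past 1.5-fold lower after median centring, at a log2 change of −0.67. Eif4e, for the cap-binding factor of translation initiation, was at 64.05 RPKM in the Brpf1-null and 94.7 RPKM in the wild-type library, 1.48-fold lower (1.42 to 1.54). Eif4ebp1, for its inhibitor that mTORC1 inactivates, was at 46.4 RPKM in the Brpf1-null and 76.7 RPKM in the wild-type library, 1.65-fold lower (1.57 to 1.75). The inhibitor was thus at 0.725 times the level of its target in the Brpf1-null library and at 0.810 times in the wild-type library. Rps6, for the ribosomal protein that S6 kinases phosphorylate, was at 1732 RPKM in the Brpf1-null and 2344 RPKM in the wild-type library, a log2 change of −0.44 that came to −0.13 after quantile normalization. Trib3, for a stress-induced pseudokinase that binds AKT, was under the filter at 0.373 RPKM in the Brpf1-null and 1.28 RPKM in the wild-type library. It was 3.43-fold lower (1.95 to 6.16), a log2 change of −0.73, from about 17 and 61 reads.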
